A study of Mus musculus with 12 samples.

Results

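Nr4a1, Nr4a2 and Nr4a3 encode the 3 members of the NR4A family of orphan nuclear receptors, and they were chosen for being classic targets of CREB family factors. Their 3 rows were found by gene identifier among the 55536 genes of the count table, and all 3 passed the filter on low counts. RNA was compared between tumours from mice with the genotype HprtCre; Ewsr1-loxP; Atf1-loxP (translocation tumours, n = 5), tumours from mice with Rosa26-LSL-EWSR1-ATF1 (Rosa26 tumours, n = 6) and 1 library of skeletal muscle labelled WT. In the translocation mice a Cre recombinase placed at the Hprt locus acts on loxP sites in the mouse Ewsr1 and Atf1 genes. In the Rosa26 mice a stop cassette keeps an EWSR1-ATF1 transgene silent until Cre removes it, and for these tumours the labels name no Cre. EWSR1-ATF1 is the fusion of clear cell sarcoma, and it joins part of the RNA-binding protein EWSR1 to the DNA-binding part of ATF1, a CREB family factor. Per the labels all tissue was snap-frozen when the primary tumour made the animal ill, and no drug was given. Age and sex were not given in the sources used here, nor whether each library came from its own animal. The p-values therefore speak only of spread between libraries, part of which may be technical.

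NR4A receptors have a ligand pocket filled by bulky side chains, so their output is set mainly by how much receptor a cell makes. Their genes are immediate early genes: cAMP and calcium signals act on them within minutes through phosphorylated CREB and its CRTC coactivators bound at cAMP response elements. The proteins bind the NBRE motif as monomers, and NR4A1 and NR4A2 also pair with the retinoid X receptor. NR4A1 (Nur77) acts in T cell selection, monocytes and muscle metabolism, NR4A2 (Nurr1) is needed to form midbrain dopamine neurons, and in humans NR4A3 (NOR1) is fused to EWSR1 in another sarcoma, extraskeletal myxoid chondrosarcoma.

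Nr4a1 (ENSMUSG00000023034) lies on chromosome 15 at 101254269 to 101274795 on the plus strand (mm10, GENCODE M21), Nr4a2 (ENSMUSG00000026826) on chromosome 2 at 57106830 to 57124003 on the minus strand, and Nr4a3 (ENSMUSG00000028341) on chromosome 4 at 48045153 to 48086447 on the plus strand. All are protein coding, and no other annotated gene overlaps any of them. The start of Nr4a1 lies 993 kb beyond the end of Atf1 on the same chromosome. The promoter windows of RefSeq (build GRCm38.p6), 250 bases before to 50 bases after each start, are printed 5′ to 3′ on the gene's strand because CREB family factors bind the CRE. Capitals mark the CRE half-site TGACG on either strand (read as CGTCA on the other). The RefSeq start of Nr4a1 lies inside the GENCODE gene.
Nr4a1, chr15:101266596-101266895, plus strand: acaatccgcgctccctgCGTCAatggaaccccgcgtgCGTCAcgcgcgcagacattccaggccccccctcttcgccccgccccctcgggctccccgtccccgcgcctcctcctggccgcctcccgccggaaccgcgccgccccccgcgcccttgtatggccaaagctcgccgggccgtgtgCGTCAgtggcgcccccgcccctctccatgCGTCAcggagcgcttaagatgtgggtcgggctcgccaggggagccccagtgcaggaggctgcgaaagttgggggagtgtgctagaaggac
Nr4a2, chr2:57123954-57124253, minus strand: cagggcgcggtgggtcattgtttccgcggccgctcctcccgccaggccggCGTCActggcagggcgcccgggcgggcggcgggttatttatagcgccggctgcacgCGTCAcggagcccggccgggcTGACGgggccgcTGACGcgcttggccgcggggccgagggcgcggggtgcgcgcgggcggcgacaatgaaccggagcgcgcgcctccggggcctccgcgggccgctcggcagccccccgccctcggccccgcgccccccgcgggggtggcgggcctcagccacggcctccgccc
Nr4a3, chr4:48045055-48045354, plus strand: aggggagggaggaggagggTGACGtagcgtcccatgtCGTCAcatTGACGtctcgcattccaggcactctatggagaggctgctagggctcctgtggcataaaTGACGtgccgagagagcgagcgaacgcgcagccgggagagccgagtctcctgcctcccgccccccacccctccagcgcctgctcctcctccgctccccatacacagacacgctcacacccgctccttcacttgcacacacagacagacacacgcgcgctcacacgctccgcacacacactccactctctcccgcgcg
Each window held 4 half-sites. Of 32851 promoter windows, 20.8% held at least 1 half-site and 0.231% held 4 or more. In Nr4a1 they began 233, 213, 69 and 40 bases before the start, and all 4 were part of the longer element TGCGTCA, which 2.12% of windows held. In Nr4a2 the half-sites began 200, 144, 123 and 111 bases before the start, and in Nr4a3 they began 231, 213, 205 and 147 bases before it. The full palindromic CRE, TGACGTCA, which contains the half-site on both strands, was in none of the 3 windows and in 1.79% of all windows. The NBRE letters AAAGGTCA were also in none of the 3 windows and in 1.51% of all windows, both strands searched. These are matches of letters, and binding was not measured.

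Levels are given in CPM, counts scaled to library size by TMM over the 12 libraries. Translocation libraries held 2.96 to 21.2 M counts, Rosa26 libraries 6.82 to 21.5 M, and the muscle library more than any of them. Translocation tumour 2 and Rosa26 tumour 4 were the shallowest tumour libraries and gave 37.8% and 30.0% of their reads to genes holding ribosomal sequence, against 1.34% to 7.38% in the other tumours. The skeletal muscle list made up 10.5% of the Rosa26 tumour 1 library, no more than 0.607% of any other tumour library and 24.5% of the muscle library. By Xist and Y-linked transcripts, translocation tumour 5 was male and the other 4 female, while Rosa26 tumours 1 and 4 were female and the other 4 male. Of the markers of melanocytes, the lineage clear cell sarcoma resembles, 6 of 13 passed the filter, Mlana had no count in any tumour, and the list summed to 962 CPM in translocation tumour 5, 16.0 to 74.7 CPM in the other 4 translocation tumours and 30.6 to 87.1 CPM in the Rosa26 tumours.

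Nr4a3 was the member with the largest difference between the tumour models. It had 3.55, 11.4, 11.2, 31.8 and 74.3 CPM in translocation tumours 1 to 5, against a lowest value of 90.8, a median of 362 and a highest value of 387 CPM in the 6 Rosa26 tumours. The groups did not overlap, and all 5 translocation tumours lay below the lowest Rosa26 tumour. The means were 26.5 ± 28.8 CPM among the translocation tumours (SD, n = 5) and 287 ± 131 CPM among the Rosa26 tumours (SD, n = 6). Nr4a3 fell, with a log2 fold change of -3.39 ± 0.74 (SE, edgeR quasi-likelihood test, Benjamini-Hochberg adjusted p = 0.0379), a 10.5-fold lower level with a 95% interval of -5.01 to -1.78 for the log2 fold change. Of 17021 genes tested, 2.70% were called (1.56% lower and 1.14% higher), 3.12% were lower without overlap of the groups and 2.20% higher without overlap. Within the translocation tumours the highest value was 21.0 times the lowest, and within the Rosa26 tumours 4.26 times. The raw counts behind the translocation values were 37, 26, 276, 614 and 1600 reads.

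The direction of the Nr4a3 difference was negative in every setting tried, but its call depended on single libraries. The adjusted p stayed below 0.05 without translocation tumour 5 (log2 fold change -4.27, edgeR adjusted p = 0.0113, with 4.27% of genes called) and without Rosa26 tumour 1 (edgeR adjusted p = 0.0334, with 2.43% of genes called), and rose to 0.0518 to 0.0933 when any other tumour was left out. Rosa26 tumours 5 and 6, whose titles differ in the last digit only and which may share an animal, gave -3.32 when summed (edgeR adjusted p = 0.0782, with 0.545% of genes called). The titles of translocation tumours 2 and 5 also share a number, though their sex-linked transcripts differ, and with both pairs summed the value was -3.19 (edgeR adjusted p = 0.0845, with 0.814% of genes called).

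Nr4a2 differed in the same direction without a call. It had 4.51, 14.4, 55.5, 17.9 and 9.06 CPM in translocation tumours 1 to 5, against a lowest value of 52.5, a median of 77.7 and a highest value of 171 CPM in the Rosa26 tumours. Translocation tumour 3 reached into the Rosa26 range, just above Rosa26 tumour 1, while the other 4 translocation tumours lay below every Rosa26 tumour. The means were 20.3 ± 20.4 CPM among the translocation tumours (SD, n = 5) and 92.4 ± 42.3 CPM among the Rosa26 tumours (SD, n = 6). The log2 fold change was -2.15 ± 0.58 (SE, edgeR adjusted p = 0.0627), with a 95% interval of -3.41 to -0.90. Without translocation tumour 3 it was -2.98, which passed (edgeR adjusted p = 0.0200, with 2.73% of genes called in that fit). DESeq2's Wald test and limma voom with quality weights also called Nr4a2 (adjusted p = 0.00295 and 0.0157), where they called 14.3% and 15.6% of all genes. The fold change shrank to -1.49 with an immediate early gene list as a covariate (edgeR adjusted p = 0.396) and to -1.53 with Rosa26 tumour 4 and translocation tumours 2 and 5 left out (edgeR adjusted p = 0.203).

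Nr4a1 was low in all tumours and was not called between the models. It had 6.61, 10.5, 4.30, 3.47 and 16.1 CPM in translocation tumours 1 to 5, against a lowest value of 10.3, a median of 13.0 and a highest value of 17.6 CPM in the Rosa26 tumours. Translocation tumours 2 and 5 lay within the Rosa26 range and the other 3 below it. The means were 8.19 ± 5.18 CPM among the translocation tumours (SD, n = 5) and 13.1 ± 2.66 CPM among the Rosa26 tumours (SD, n = 6). The log2 fold change was -0.64 ± 0.40 (SE, edgeR adjusted p = 0.345), with a 95% interval of -1.51 to 0.23, which still holds a 2-fold fall. It was -1.41 with limma voom (adjusted p = 0.0137, where 15.6% of genes were called). Without translocation tumours 2 and 5 and Rosa26 tumour 4 it was -1.44 (edgeR adjusted p = 0.0449, where 3.45% of genes were called). Over the other alternatives the adjusted p was up to 0.516.

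**Figure D1:**
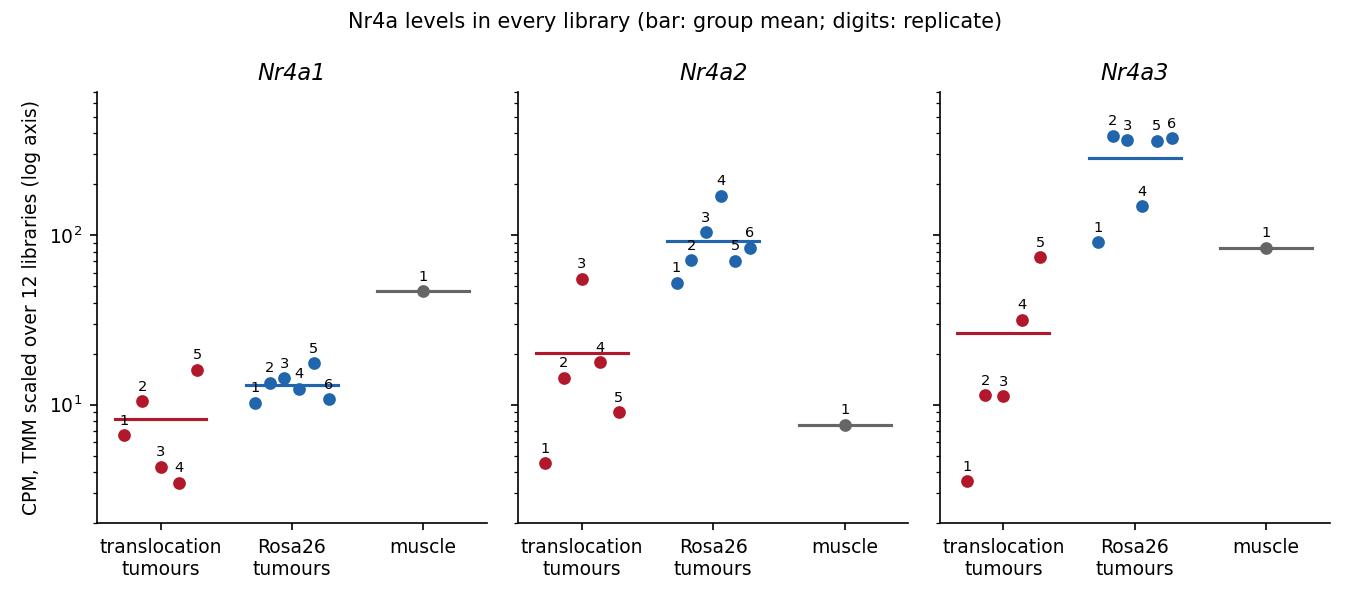
Levels of Nr4a1, Nr4a2 and Nr4a3 in CPM on a log axis for each library of the translocation tumours, the Rosa26 tumours and muscle; points are libraries with their replicate number and bars are group means. For Nr4a3 the 5 translocation tumours, at 3.55 to 74.3 CPM, all lie below the Rosa26 tumours, at 90.8 to 387 CPM.

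Nr4a3 was lower in female than in male libraries of each tumour model, with 1 male library among the translocation tumours. In the translocation tumours the 4 female libraries had 3.55 to 31.8 CPM and the male library 74.3 CPM, and in the Rosa26 tumours the 2 female libraries had 90.8 and 148 CPM and the 4 male libraries 360 to 387 CPM. The female Rosa26 libraries were also the one with muscle transcripts and the one rich in ribosomal sequence, so sex cannot be told apart from these features. The male translocation library, tumour 5, stood apart from the other 4 in its whole profile: the median chi-square per gene was 26.8 to 55.1 in its pairs with them and 8.59 to 13.5 among them. Among female libraries Nr4a3 averaged 14.5 CPM in 4 translocation tumours and 119 CPM in 2 Rosa26 tumours, and among male libraries it was 74.3 CPM in 1 translocation tumour and averaged 371 CPM in 4 Rosa26 tumours. The log2 ratio of these means was -3.04 in females and -2.32 in males. With sex as a covariate the log2 fold change of Nr4a3 was -2.72 (edgeR adjusted p = 0.0124) and that of Nr4a2 was -2.56 (edgeR adjusted p = 0.0282), in a fit that called 14.9% of all genes. For Nr4a2 the 4 female translocation tumours had 4.51 to 55.5 CPM against 52.5 and 171 CPM in the female Rosa26 tumours, and the male translocation tumour had 9.06 CPM against 70.9 to 104 CPM in the male Rosa26 tumours. For Nr4a1 the ratio turned with sex, at -0.87 in females and 0.20 in males on the log2 scale, and the difference between the sexes was not tested.

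The make-up of the family was compared per length of transcript (RPKM, CPM per kilobase of annotated exon), since the exons of Nr4a1, Nr4a2 and Nr4a3 add up to 3509, 4059 and 5987 bases. The summed level was 3.59 to 19.2 RPKM in the translocation tumours and 31.0 to 90.4 RPKM in the Rosa26 tumours, and 29.2 RPKM in muscle. In the translocation tumours the leading member changed from tumour to tumour. Nr4a1 led in tumour 1 with 52.5% of the family, Nr4a2 in tumours 2 and 3 with 42.1% and 81.5%, and Nr4a3 in tumours 4 and 5 with 49.6% and 64.6%. The leads in tumours 1 and 2 rest on few reads. Nr4a1, Nr4a2 and Nr4a3 had 69, 47 and 37 reads in translocation tumour 1 and 24, 33 and 26 in translocation tumour 2. In the Rosa26 tumours Nr4a3 led in 5 of 6 libraries, with 48.9% to 75.2% of the family, and Nr4a2 led in tumour 4 with 59.9%. Nr4a1 held 3.56% to 9.44% of the family in the Rosa26 tumours. In muscle Nr4a1 and Nr4a3 held 45.4% and 48.2% and Nr4a2 held 6.42%. These shares do not depend on how libraries are scaled.

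**Figure D2:**
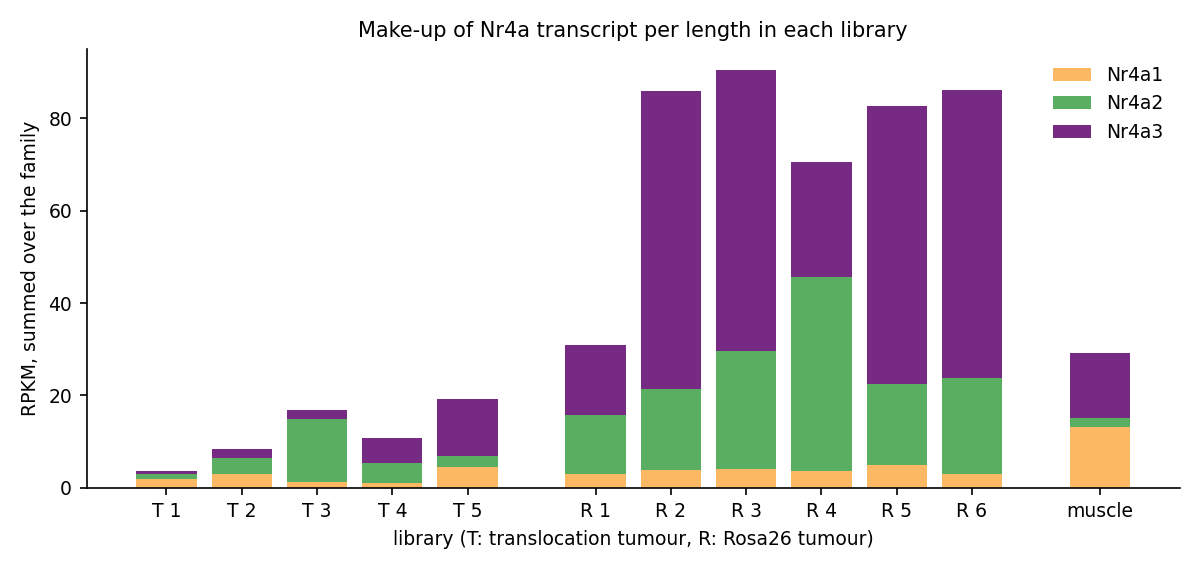
Stacked RPKM of Nr4a1, Nr4a2 and Nr4a3 in each library, translocation tumours (T), Rosa26 tumours (R) and muscle. The stacks reach 3.59 to 19.2 RPKM in the translocation tumours and 31.0 to 90.4 RPKM in the Rosa26 tumours, with Nr4a3 the largest part in 5 of 6 Rosa26 tumours.

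Whether the members differed from each other in their response was tested on the ratio of their counts within each library. The log2 ratio of Nr4a3 to Nr4a1 was -0.89, 0.11, 1.38, 3.19 and 2.21 in translocation tumours 1 to 5, against a lowest value of 3.14 and a highest of 5.11 in the Rosa26 tumours. Translocation tumour 4 lay just above Rosa26 tumour 1, and the others lay below all Rosa26 tumours. The means were 1.20 ± 1.62 in the translocation tumours (SD, n = 5) and 4.28 ± 0.77 in the Rosa26 tumours (SD, n = 6), with a difference in mean of -3.08 (two-sided exact permutation p = 0.00433, 0.0130 adjusted over the 3 pairs of members). Leaving out each tumour in turn kept the adjusted p at 0.0143 to 0.0476, and leaving out translocation tumours 2 and 5 and Rosa26 tumour 4 together gave 0.0536. The log2 ratio of Nr4a2 to Nr4a1 averaged 1.02 ± 1.94 in the translocation tumours (SD, n = 5) and 2.73 ± 0.62 in the Rosa26 tumours (SD, n = 6), a difference of -1.70 (exact permutation p = 0.0779, 0.117 adjusted). Without translocation tumour 3 that difference was -2.37 and passed (exact permutation, adjusted p = 0.0214). The log2 ratio of Nr4a3 to Nr4a2 averaged 0.18 ± 1.96 in the translocation tumours (SD, n = 5) and 1.55 ± 1.05 in the Rosa26 tumours (SD, n = 6), a difference of -1.38 (exact permutation p = 0.160, also 0.160 adjusted). Without translocation tumour 5 it was -2.09 and passed (exact permutation, adjusted p = 0.0286). The smallest p that all splits of the 11 tumours allow is 0.00216. In muscle the log2 ratio of Nr4a3 to Nr4a1 was 0.86, below every Rosa26 tumour.

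**Figure D3:**
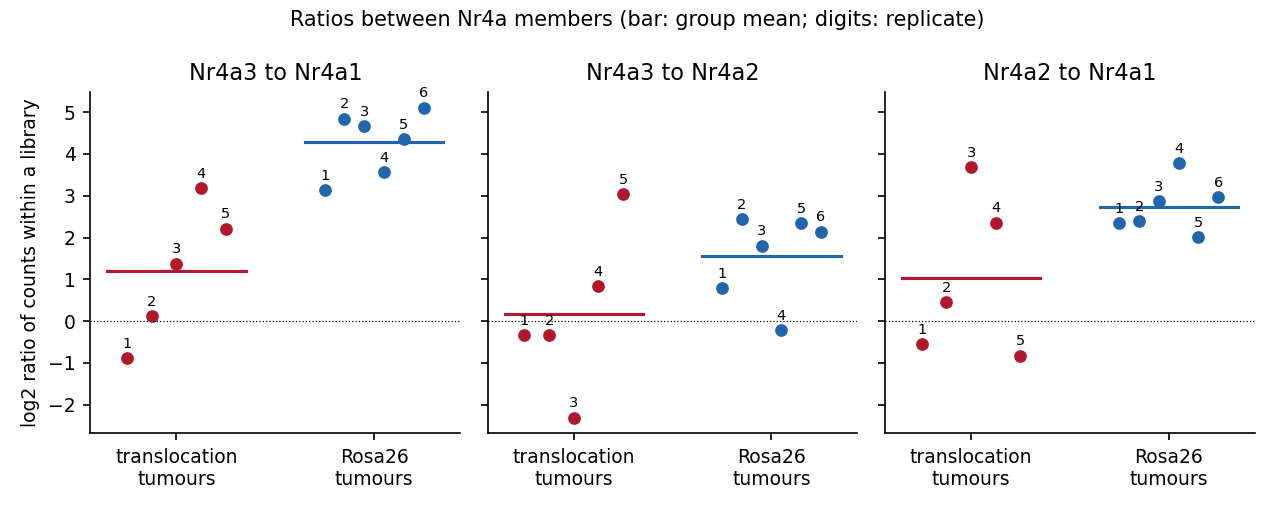
Log2 ratio of counts between pairs of members within each library, for translocation and Rosa26 tumours; points are libraries with their replicate number and bars are group means. The ratio of Nr4a3 to Nr4a1 averages 1.20 in the translocation tumours and 4.28 in the Rosa26 tumours.

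Against muscle 1 difference passed, that of Nr4a1 in the translocation tumours. Nr4a1 was 46.6 CPM in muscle, above all 11 tumours, and had log2 fold changes of -2.51 ± 0.60 in the translocation tumours over muscle (SE, edgeR adjusted p = 0.0180) and -1.82 ± 0.60 in the Rosa26 tumours over muscle (SE, edgeR adjusted p = 0.0560). The Rosa26 difference of Nr4a1 passed without translocation tumours 4 or 5 (edgeR adjusted p = 0.0418 and 0.0123, with 15.5% and 28.2% of genes called) and reached 0.0969 at most with 1 tumour left out. Translocation libraries are not part of the Rosa26 to muscle comparison and enter it only through the shared fit. Without translocation tumours 4 or 5 the log2 fold change of Nr4a1 stayed at -1.82 and -1.83. Of 22184 genes tested, 12.4% were called in the translocation tumours over muscle (3.95% higher, 8.46% lower) and 16.0% in the Rosa26 tumours over muscle (5.51% higher, 10.5% lower). Nr4a2 was 7.61 CPM in muscle, below 4 of 5 translocation tumours and below all Rosa26 tumours, with log2 fold changes of 1.42 ± 1.11 in the translocation tumours over muscle (SE, edgeR adjusted p = 0.399) and 3.60 ± 1.29 in the Rosa26 tumours over muscle (SE, edgeR adjusted p = 0.0752). The Rosa26 difference of Nr4a2 passed without translocation tumours 1, 3 or 5 (edgeR adjusted p = 0.0492, 0.0247 and 0.0499, with 15.2%, 15.6% and 28.2% of genes called). Its log2 fold change stayed at 3.60, 3.60 and 3.59 in these fits. Nr4a3 was 84.3 CPM in muscle, between the translocation and the Rosa26 tumours, with log2 fold changes of -1.66 ± 1.06 in the translocation tumours over muscle (SE, edgeR adjusted p = 0.310) and 1.77 ± 1.35 in the Rosa26 tumours over muscle (SE, edgeR adjusted p = 0.365). Without translocation tumour 5 the Nr4a3 difference passed for the translocation tumours over muscle (-2.54, edgeR adjusted p = 0.0498, with 23.9% of genes called). Muscle was 1 library, whose title shares a number with translocation tumour 1, and its spread was assumed to be like that of the tumours. Its level depended on scaling. By total count alone the muscle values were 19.1 CPM of Nr4a1, 3.12 CPM of Nr4a2 and 34.5 CPM of Nr4a3, and the median of all genes moved to 2.09 in the translocation tumours over muscle, against 0.74 with TMM. On that scale Rosa26 tumour 5 exceeded muscle for Nr4a1 and the Nr4a1 call ended (log2 fold change -1.20 in the translocation tumours over muscle, edgeR adjusted p = 0.169), Nr4a2 passed in the Rosa26 tumours (4.99, edgeR adjusted p = 0.0347), and translocation tumours 4 and 5 exceeded muscle for Nr4a3. That scaling called 16.1% of genes in the translocation tumours over muscle and 18.2% in the Rosa26 tumours over muscle. The Rosa26 and translocation comparisons share the muscle library.

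**Figure D4:**
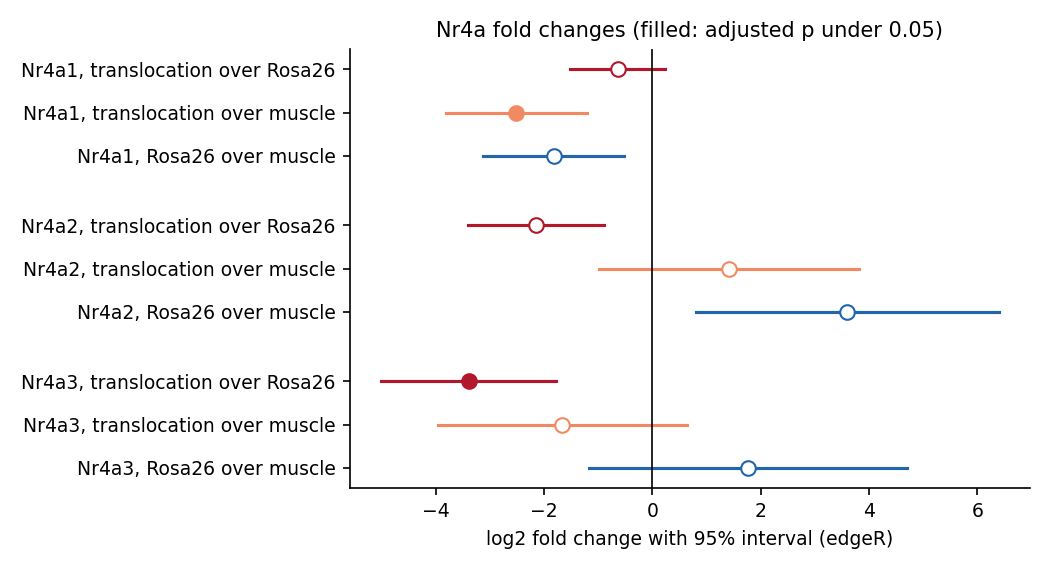
Log2 fold changes of the 3 members in each comparison from edgeR, with 95% intervals; filled points passed at an adjusted p under 0.05. Nr4a3 passed for translocation over Rosa26 tumours (-3.39) and Nr4a1 for translocation tumours over muscle (-2.51).

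The NR4A genes were set beside the other nuclear receptors, 49 genes in all. By mean RPKM Nr4a3 and Nr4a2 ranked 17 and 12 in the translocation tumours and 1 and 2 in the Rosa26 tumours, while Nr4a1 ranked 23 in the translocation tumours and 20 in the Rosa26 tumours. Nr4a3 was 4.42 ± 4.80 RPKM in the translocation tumours (SD, n = 5) and 47.9 ± 21.9 RPKM in the Rosa26 tumours (SD, n = 6). In the translocation tumours the highest receptors were Rarg, a retinoic acid receptor, at 20.9 RPKM, the clock repressor Nr1d2 at 18.0 RPKM, the thyroid hormone receptor Thra at 16.4 RPKM, Esrra at 13.6 RPKM and the retinoid X receptor Rxra at 12.5 RPKM. In the Rosa26 tumours Rarg, Nr1d2 and Thra followed the 2 NR4A genes at 21.3, 18.2 and 16.5 RPKM. High receptors in muscle were Rora at 84.3 RPKM, Rxra at 54.7, Nr1d2 at 40.5 and the glucocorticoid receptor Nr3c1 at 34.5 RPKM. Of the 46 other receptors 34 were tested between the tumour models, and 0 rose and 1 fell, where 2.70% of all genes were called. Their median log2 fold change was -0.16, beside 0.07 over all genes. The 1 that fell was the progesterone receptor Pgr (edgeR adjusted p = 0.0412), with 3 counts in all translocation libraries and 345 in all Rosa26 libraries, or 0.117 ± 0.184 CPM among the translocation tumours (SD, n = 5) and 2.98 ± 2.06 CPM among the Rosa26 tumours (SD, n = 6). Pgr did not pass once translocation tumours 1, 3 or 4 were left out, and in 5 other leave-one-out fits the filter removed it. By fold change Nr4a3 was the second and Nr4a2 the fourth most negative of the 37 tested receptors.

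Genes for partners of the NR4A proteins were compared next. Of 9 genes for retinoid X receptors and corepressors, all tested, 0 rose and 1 fell, with a median log2 fold change of -0.15. The retinoid X receptor genes among them were also in the nuclear receptor list. Over all genes tested 2.70% were called. Rxra and Rxrb, whose products pair with NR4A1 and NR4A2, had -0.05 and 0.03 (edgeR adjusted p = 0.938 and 0.941). Rcor1 and Ncor1 had -0.81 and -0.66 with no call (edgeR adjusted p = 0.0740 and 0.124).

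Of 25 genes that regulate transcription of the NR4A genes (CREB factors, CRTC and p300 coactivators, protein kinase A, the salt-inducible kinases that hold CRTC in the cytoplasm, MEF2 and class IIa deacetylases), 1 rose and 0 fell, and 18 had a negative fold change (median -0.43). Over all genes tested 1.14% rose and 1.56% fell. Atf1 rose, with a log2 value of 1.15 ± 0.22 for translocation over Rosa26 (SE; edgeR adjusted p = 0.0274), at 48.1 ± 13.0 CPM among the translocation tumours (SD, n = 5) and 22.4 ± 2.64 CPM among the Rosa26 tumours (SD, n = 6). Its counts cannot separate normal from fused transcripts, and Atf1 missed the threshold when translocation tumour 1 was left out, and likewise Rosa26 tumours 3, 5 or 6 (edgeR adjusted p = 0.0582 to 0.0884). The coactivator Crebbp had -0.89, the regulatory kinase subunit Prkar2b 2.05 and Sik1 -0.85, with no call (edgeR adjusted p = 0.0606, 0.0649 and 0.0909).

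Other targets of cAMP and CREB yielded 1 call, where 2.70% of all 17021 genes tested were called. This list shares Crem and Sik1 with the regulators above. It also shares Fos, Fosb, Egr1, Atf3, Dusp1, Per1 and Gadd45b with the immediate early genes below. Results of these lists are therefore not independent. Of 24 tested, 0 rose and 1 fell (0 or 1 over the leave-one-out fits), 13 were negative, and the median log2 fold change was -0.44 (-0.19 without translocation tumours 2 and 5 and Rosa26 tumour 4, where 1 rose and 0 fell). The 1 that fell was Pcsk1, a prohormone convertase gene, at 45.1 ± 47.6 CPM among the translocation tumours (SD, n = 5) and 682 ± 525 CPM among the Rosa26 tumours (SD, n = 6; log2 fold change -3.88, edgeR adjusted p = 0.0492). That call held in 3 of 11 leave-one-out fits, those without translocation tumour 3 or Rosa26 tumours 1 or 4. The growth factor gene Bdnf had -2.38, Sik1 -0.85 and the EGF receptor ligand Areg 3.39, with no call (edgeR adjusted p = 0.0797, 0.0909 and 0.129).

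Immediate early genes, the class to which the NR4A genes belong, had 1 call in each direction. Among all genes tested 1.14% rose and 1.56% fell. Of 37 tested, 1 rose and 1 fell, 22 were negative, and the median log2 fold change was -0.33 (-0.47 to -0.08 over the leave-one-out fits, where 0 to 2 rose and 0 to 3 fell). The zinc finger factor Klf6 rose (log2 fold change 1.27, adjusted p = 0.0134 by edgeR) and its relative Klf4 fell (-1.68, adjusted p = 0.0447 by edgeR). The antiproliferative gene Btg2 had -1.40 without overlap of the groups (edgeR adjusted p = 0.0508), and the matrix gene Ccn2 had -2.27 (edgeR adjusted p = 0.0615). Klf6 missed the threshold when Rosa26 tumours 3 or 6 were left out (adjusted p up to 0.0563), and Klf4 passed in 2 of 11 leave-one-out fits, those without translocation tumour 5 or Rosa26 tumour 1 (up to 0.121 in the others). The summed level of the 39 listed genes was 988 to 1309 CPM in the translocation tumours and 976 to 1590 CPM in the Rosa26 tumours. With the mean of this list as a covariate, Nr4a3 had a log2 fold change of -5.58 (edgeR adjusted p = 0.0270), in a fit that called 0.488% of genes and gave Nr4a2 -1.49 (edgeR adjusted p = 0.396) and Nr4a1 -1.05.

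A list of genes tied to dopamine neurons, which need Nr4a2 to form, was also compared. Control of these genes by Nr4a2 was not measured. The list summed to 34.1 to 130 CPM in the translocation tumours and 57.5 to 153 CPM in the Rosa26 tumours. In muscle it summed to 637 CPM, of which Aldh1a1 made up 615 CPM. Of 14, 7 were tested and 0 rose or fell, while 6 had a negative fold change (median -1.41, -1.66 to -0.58 with 1 tumour left out, and -0.57 without translocation tumours 2 and 5 and Rosa26 tumour 4). Th, the rate-limiting enzyme of dopamine synthesis, was 0.708 ± 1.09 CPM among the translocation tumours (SD, n = 5) and 4.71 ± 5.17 CPM among the Rosa26 tumours (SD, n = 6; log2 fold change -3.20, edgeR adjusted p = 0.138), and Dlk1, a membrane protein of the Notch ligand type, had -3.09 (edgeR adjusted p = 0.135). The developmental factor Lmx1b had -1.54 and the aldehyde dehydrogenase Aldh1a1 -1.41 (edgeR adjusted p = 0.380 and 0.618).

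Immune, stromal and vascular cells also express NR4A genes, and in bulk tissue fewer cells of a type and less RNA per cell cannot be told apart. The summed level of 18 T and NK cell markers was 9.25 to 93.1 CPM in the translocation tumours and 19.4 to 143 CPM in the Rosa26 tumours. That of 15 macrophage and monocyte markers was 679 to 3099 CPM in the translocation tumours and 930 to 2629 CPM in the Rosa26 tumours, and that of 10 endothelial markers 345 to 818 CPM in the translocation tumours and 423 to 824 CPM in the Rosa26 tumours. The ranges overlapped for all 3 lists. Of the tested markers, 2 of 16 T and NK cell markers, 0 of 15 macrophage markers and 1 of 10 endothelial markers fell, and none of them rose. Among all genes tested 1.56% fell and 1.14% rose. The median log2 fold change was -1.40 for the T and NK cell list (-2.12 to -0.49 with 1 tumour left out, where 0 or 1 rose and 0 to 3 fell), 0.24 for the macrophage list (-0.20 to 0.52) and -1.20 for the endothelial list (-1.46 to -1.01). The T and NK value of -0.49 was that without Rosa26 tumour 4. Mast cell markers (9 genes) summed to 3.89 to 17.5 CPM in the translocation tumours and 4.37 to 34.8 CPM in the Rosa26 tumours. The 2 that were tested had a median log2 fold change of 0.56 (-1.05 to 1.06 with 1 tumour left out). Neutrophil markers (8 genes) summed to 8.11 to 108 CPM in the translocation tumours and 5.05 to 41.8 CPM in the Rosa26 tumours. Their median log2 fold change was 2.47 over 4 tested genes (1.48 to 2.78 with 1 tumour left out), with no call. Fibroblast and collagen genes (10) summed to 264 to 22375 CPM in the translocation tumours and 5564 to 98686 CPM in the Rosa26 tumours, and 8 of the 10 had a negative fold change with no call. The skeletal muscle list summed to 25.5 to 7863 CPM in the translocation tumours and 19.6 to 88460 CPM in the Rosa26 tumours. Every marker of these lists had a count in some tumour, and the part of these cells in the NR4A difference was not tested.

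The nearest tested genes on each side of the members were not called. Beside Nr4a3, Sec61b, 561911 bases away, had a log2 fold change of 0.93 and Stx17, 38468 bases away, one of -0.10 (edgeR adjusted p = 0.127 and 0.813). Beside Nr4a2, Kcnj3, 1508685 bases away, and A930012O16Rik, 112224 bases away, had 1.65 and 0.63 (edgeR adjusted p = 0.555 and 0.620). Beside Nr4a1, Grasp, 21513 bases away, and Atg101, 9477 bases away, had 0.21 and 0.70 (edgeR adjusted p = 0.831 and 0.163).

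The genes whose levels followed the members most closely were ranked by Spearman's rho of log2 CPM over the 11 tumours among 11557 genes with a mean of at least 5 CPM. With so many genes over 11 points high values are common, and the points share the genotype difference, so the ranks are a description. For Nr4a3 they were Astn1, a neuronal adhesion gene (rho 0.97), Gabrd, a GABA receptor subunit (0.97), the mannosyltransferase Pomt1 (0.96), the cAMP-binding exchange factor Rapgef4 (0.96) and the axonemal dynein Dnah2 (0.95). For Nr4a2 they were the signalling adaptor Shc3 (0.98), the collagen-binding proteoglycan Fmod (0.97), the vascular transcription factor Sox18 (0.96), Epb41l3 (0.96) and Cnnm4 (0.95). For Nr4a1 they were the phosphatase subunit Ppp2r2c (0.97), G3bp1, a stress granule protein (0.95), the heterochromatin protein Cbx5 (0.95), Urb2 (0.94) and the kinase subunit Csnk2a2 (0.93). No gene was shared by these 3 sets.

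**Figure D5:**
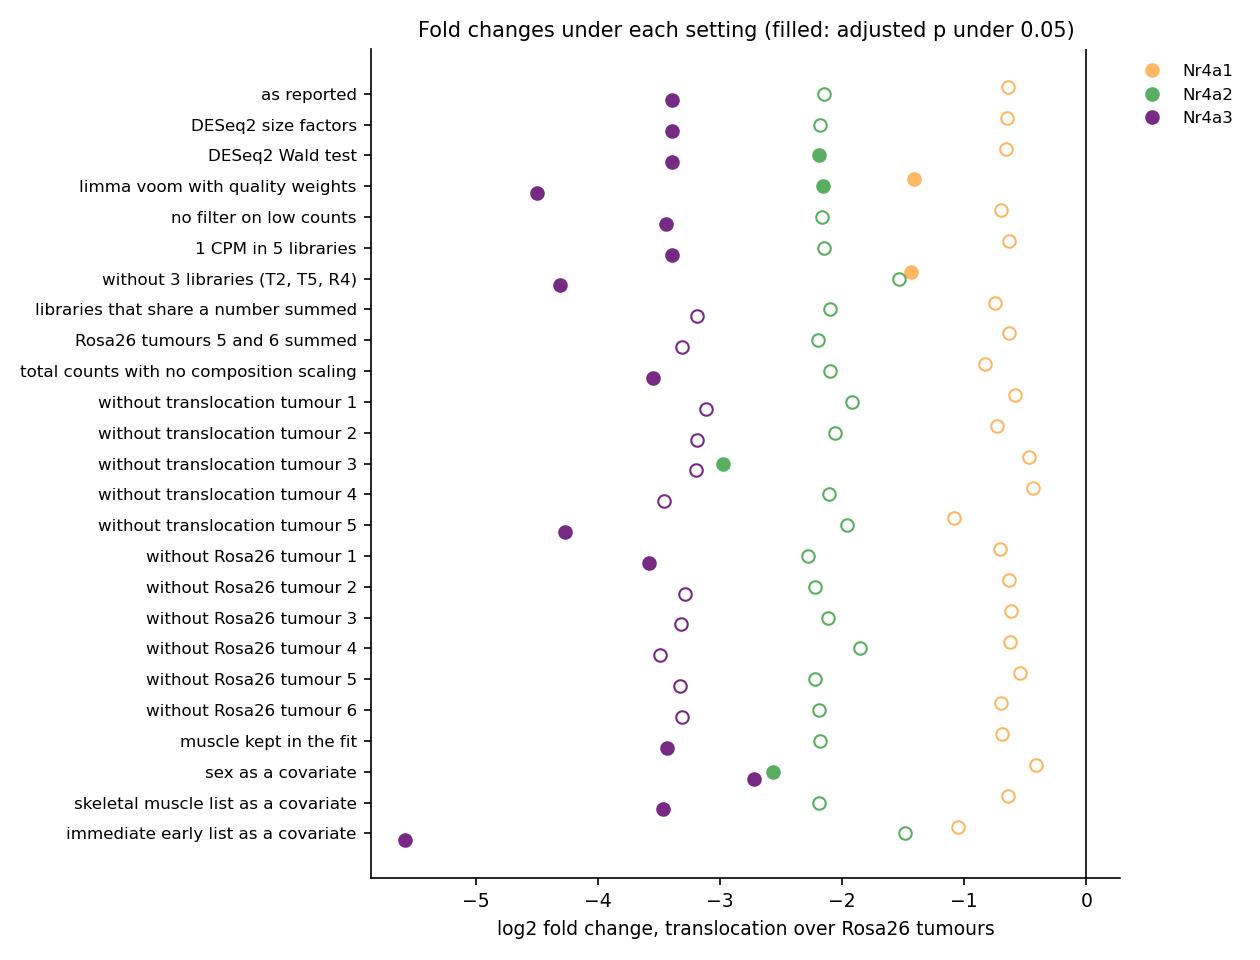
Log2 fold changes of the 3 members for translocation over Rosa26 tumours under each setting, from the values as reported at the top to fits with covariates at the bottom; filled points had an adjusted p under 0.05. Nr4a3 was the most negative member in each setting and runs from -5.58 to -2.72.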

How the data were processed

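RNA was sequenced from 12 mouse samples. The deposited table holds whole-number counts per Ensembl gene, not normalized, with 1 column per sample. Per the labels' protocols libraries were stranded with ribosomal RNA depleted. Tools listed in the submitters' processing notes, with no roles, are STAR 2.7.5a, cutadapt, RSEM, featureCounts and DESeq2, with build mm10. How multi-mapped reads and strand were handled, and with which annotation, is not given in the sources used here. Of 55536 identifiers 55450 had a symbol in GENCODE M21, also the source of exon lengths.

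edgeR 4.0.16 in R 4.3.3 was run with TMM, filterByExpr (minimum count 10), robust quasi-likelihood tests and Benjamini-Hochberg adjustment over all genes at 0.05, on the 11 tumours and, for muscle, on all 12 libraries; it was tested on simulated data. Ratios between members used a prior count of 0.5 and exact permutation. Alternatives included DESeq2 1.42.0 and limma 3.58.1. Xist and Y-linked counts gave the sex. The closest pair of libraries within a tumour group (Rosa26 tumours 3 and 6) had a median chi-square per gene of 5.25 against 0.455 for sampling noise, so none was taken as a copy. Replicate numbers pair no samples. Named genes were the members, the nearest tested gene on each side, up to 4 per list by smallest adjusted p, the 5 genes most alike to each member and the 5 highest receptors per group; clone and model names were left out of the most-alike genes, and some genes the rule chose are not reported here. The members and lists were chosen with earlier results of these data known.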

Additional observations from a re-analysis of the deposited data

Results flagged for a closer look

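Nr4a2 in translocation tumour 3, at 55.5 CPM, stood far above the other 4 translocation tumours, at 4.51 to 17.9 CPM. It was the 1 such sample among 12 groups of values checked (3 levels and 3 log2 ratios in each tumour model), where chance flags about 1 in 20 groups. Its distance to the next tumour was 0.738 of the range, against a limit of 0.71. Levels were checked on the CPM scale, where high values lie further apart than on a log scale, and log2 CPM was not checked. Without translocation tumour 3 the log2 fold change was -2.98 (edgeR adjusted p = 0.0200, with 2.73% of genes called), a value that follows from leaving out the highest translocation library.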

How the results depend on the processing

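No paired analysis was possible because replicate numbers follow sample order only. No fold change of a member turned its sign in any setting run. For translocation over Rosa26 tumours, Nr4a3 ran from -4.27 to -3.12 with 1 tumour left out, and no longer passed with libraries whose titles share a number summed (translocation tumours 2 and 5, Rosa26 tumours 5 and 6; -3.19) or Rosa26 tumours 5 and 6 summed (-3.32, added after seeing the data); its adjusted p ran from 2.82e-05 to 0.0933. Nr4a2 ran from -2.98 to -1.85 with 1 tumour left out and passed with DESeq2 (-2.19), voom (-2.16) and sex as a covariate (-2.56). The exact permutation test of log2 CPM gave Nr4a2 a difference of -2.53 (exact permutation p = 0.00433). That p was not adjusted over all genes, so it is not counted as a pass. The fold change of Nr4a2 shrank to -1.49 with the immediate early list as a covariate. It shrank to -1.53 with Rosa26 tumour 4 and translocation tumours 2 and 5 left out. Nr4a1 ran from -1.08 to -0.44 with 1 tumour left out and passed with voom (-1.41) and with Rosa26 tumour 4 and translocation tumours 2 and 5 left out (-1.44). The 460 genes called became 2439 with DESeq2, 2651 with voom, 2534 with sex, 293 with the muscle list and 83 with the immediate early list as a covariate, 141 with libraries that share a number summed, 91 with Rosa26 tumours 5 and 6 summed, and 63 to 744 with 1 tumour left out.

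For the Rosa26 tumours over muscle, Nr4a1 passed with DESeq2 size factors (-1.97), DESeq2's test (-1.97), voom (-1.83), a filter of 1 CPM in 5 libraries (-1.87) and without the 3 libraries named above (-1.88). It ran from -1.93 to -1.76 with 1 tumour left out. Nr4a2 passed there with DESeq2's test (3.46), voom (3.49) and total counts (4.99, added after seeing the data, with 18.2% of genes called), and ran from 3.33 to 3.72. With DESeq2 size factors Nr4a2 did not pass (3.46, edgeR adjusted p = 0.0782). Apart from total counts, the shares of all genes called in these fits are not given here. Between the tumour models DESeq2's test and voom called 14.3% and 15.6% of genes, where edgeR called 2.70%. For the translocation tumours over muscle, Nr4a1 did not pass with total counts (-1.20), and Nr4a3 ran from -2.54 to -1.38 with 1 tumour left out. The ratio of Nr4a3 to Nr4a1 no longer passed without the 3 libraries (-3.20) and ran from -3.58 to -2.56 with 1 tumour left out; that of Nr4a2 to Nr4a1 ran from -2.37 to -1.24 and that of Nr4a3 to Nr4a2 from -2.09 to -0.76. The cause was not tested. Translocation tumours 1 and 2, with 24 to 69 reads per member, limit the precision of the lowest values.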

Other observations

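Few other genes with a RefSeq promoter window differed between the tumour models, both among those with CRE letters and over all of them. Of 396 tested genes with a full CRE in a window, 3 rose and 4 fell in the translocation over the Rosa26 tumours, with a median log2 fold change of 0.20. Of 60 tested genes with 4 or more half-sites in a window, the NR4A genes left out, 0 rose and 1 fell, with a median of 0.22. Over all 11505 tested genes with a window, 145 rose and 190 fell, with a median of 0.08. These sets were formed after the values had been seen and were not tested.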
